A study of Mus musculus with 24 samples.

Results

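The 9 genes described here carry the signal of noradrenaline and adrenaline through the heart muscle cell: the receptor genes Adrb1, Adra1a and Adra1b, the G protein gene Gnas, the adenylyl cyclase genes Adcy5 and Adcy6, and the genes of 3 proteins that limit the signal, Grk5, Rgs2 and Pde4d. They were chosen by name and matched to the gene symbols of the deposited tables. All 9 are among the 10393 genes measured at 16 h, and 8 are among the 7723 genes measured at 72 h, where Adrb1 was not analysed here. Hearts came from wild-type mice that received vehicle (V), doxorubicin at a dose of 25 mg/kg (DOX), daily hesperitin at 10 mg/kg (H) or the 2 compounds together (DOXH), and were collected 16 h or 72 h after treatment. Doxorubicin is an anthracycline used against cancer that injures the heart, and hesperitin, usually spelled hesperetin, is a citrus flavanone. The labels list 24 samples in 8 groups of 3, of which 18 libraries in 6 groups were used here, namely V, H, DOX and DOXH at the earlier time and the V and DOX groups at the later one. The sources used here give no strain, sex, age, route of dosing or start of hesperitin. The labels also do not say that the 3 samples of a group are separate animals, so p-values measure only the spread between these samples.

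Beta-adrenergic receptors couple to the stimulatory G protein whose alpha subunit is made from Gnas. That subunit switches on adenylyl cyclase, cyclic AMP rises, and protein kinase A (PKA) then phosphorylates calcium channels, phospholamban and myofilament proteins, so that the heart beats faster and with more force. Alpha-1 receptors instead couple to Gq and phospholipase C. G protein-coupled receptor kinases such as GRK5 phosphorylate occupied receptors and desensitise them, RGS2 shortens the active state of Gq and also restrains Gs signalling, and PDE4D is a phosphodiesterase that breaks down cyclic AMP near the receptor and the calcium stores.

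The 9 libraries of V, DOX and DOXH at 16 h held 9255708 to 11074498 counts, the 3 H libraries 17664089 to 19869092, and those at 72 h 16607839 to 20587603. Values below are counts scaled to library size (CPM), scaled with TMM factors within each table, so levels are not compared between 16 h and 72 h. The DOXH libraries lay apart from each other. On the first principal component at 16 h, which held 60.8% of the variance, they scored -8.28, -35.1 and 17.7, against -42.2 to -29.4 for DOX and 18.0 to 20.7 for V. Heart tissue markers were at high levels in all groups, and the summed level of 12 cardiac muscle genes was lower after doxorubicin. It was 69940 to 78350 CPM in V and 40940 to 43950 CPM in DOX at 16 h, and 61060 to 69160 CPM in V and 25480 to 30270 CPM in DOX at 72 h. In DOXH it ranged from 49660 to 74400 CPM. Markers of other cells moved too, most of all at 72 h. There the summed level of 5 red blood cell genes was 1436 to 3523 CPM in V and 20.6 to 33.0 CPM in DOX, with 5 of 5 lower. That of 3 neutrophil genes was 0.957 to 1.98 CPM in V and 26.4 to 133.2 CPM in DOX, with 3 of 3 higher. Of the endothelial markers 7 of 12 rose and 1 fell (1258 to 1368 CPM in V and 1703 to 2191 CPM in DOX), and of the macrophage markers 5 of 8 rose and 1 fell (226.1 to 295 CPM in V and 332.9 to 415.6 CPM in DOX). Of 9 fibroblast markers at 72 h 3 rose and 1 fell (1223 to 1633 CPM in V and 1711 to 2592 CPM in DOX). Of 10 pericyte and smooth muscle markers at 72 h 0 rose and 2 fell (1007 to 1041 CPM in V and 798.2 to 897.7 CPM in DOX). At 16 h none of the 12 endothelial markers rose and 2 fell, and of 10 fibroblast markers 0 rose and 0 fell. Of 10 macrophage markers 1 rose and 1 fell, and of 6 neutrophil markers 1 rose and 0 fell. Of 5 red blood cell markers 0 rose and 2 fell, and of 9 pericyte and smooth muscle markers 0 rose and 3 fell. None of the markers tested was at 0 in all libraries. In whole-heart RNA, fewer cells of a type and less RNA per cell cannot be told apart, and the part of these marker changes in the results below was not tested.

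The promoters of 3 members are shown because those genes differ in how they moved: Adrb1 was lower and Grk5 higher after doxorubicin, and Rgs2 had the lowest values under hesperitin alone. Each is the 250 bases before the start site in RefSeq (GRCm38.p6), 5′ to 3′ on the gene's strand, with the half-site of the cyclic AMP response element (TGACG, or CGTCA on the other strand) in capitals. Rgs2 lies at chr1:144004150-144004399 on the minus strand, Adrb1 at chr19:56721867-56722116 and Grk5 at chr19:60889499-60889748, both on the plus strand.
Rgs2: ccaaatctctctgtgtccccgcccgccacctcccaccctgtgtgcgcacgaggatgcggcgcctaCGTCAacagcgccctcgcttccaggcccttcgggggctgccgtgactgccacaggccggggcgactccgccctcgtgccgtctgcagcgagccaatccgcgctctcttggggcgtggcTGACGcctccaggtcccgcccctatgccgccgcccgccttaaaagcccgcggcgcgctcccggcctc
Adrb1: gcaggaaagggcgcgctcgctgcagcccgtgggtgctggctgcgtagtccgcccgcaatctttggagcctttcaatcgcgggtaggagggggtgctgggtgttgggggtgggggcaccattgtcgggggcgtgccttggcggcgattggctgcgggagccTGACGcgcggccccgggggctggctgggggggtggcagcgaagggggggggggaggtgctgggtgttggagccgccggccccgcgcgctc
Grk5: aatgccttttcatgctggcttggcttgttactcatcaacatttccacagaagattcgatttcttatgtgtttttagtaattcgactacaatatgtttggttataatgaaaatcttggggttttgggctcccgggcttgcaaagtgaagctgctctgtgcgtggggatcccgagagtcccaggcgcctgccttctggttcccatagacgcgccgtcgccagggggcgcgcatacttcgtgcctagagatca
Rgs2 holds 2 half-sites, 1 on each strand, and Adrb1 holds 1, while Grk5 holds 0. Windows were found for 7 of the 9 members, 11 in all, and not for Adra1a and Adcy6. Besides Rgs2 and Adrb1, half-sites were found in 3 of the 4 Gnas windows, which hold 2 distinct sites because a pair of these windows overlap and share 1, and in none of those of Adra1b, Adcy5 and Pde4d. A half-site occurs in 17.8% of 32851 promoter windows of the same length. The full element TGACGTCA, which contains both half-sites in overlap, was in none of the members' windows and is in 1.55% of all windows. These matches describe letters, not bound sites.

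Per kilobase of the longest annotated transcript, Gnas had by far the highest level of the members in V at 16 h, 168 CPM per kb. Adcy6 followed at 33.3 CPM per kb and Rgs2 at 14.8 CPM per kb. Adcy5 had 8.94 CPM per kb, and the 3 receptor genes, Grk5 and Pde4d lay close together between 5.30 and 6.58 CPM per kb. Among the cyclases the Adcy6 transcript was therefore at a higher level per length than that of Adcy5.

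**Figure D1:**
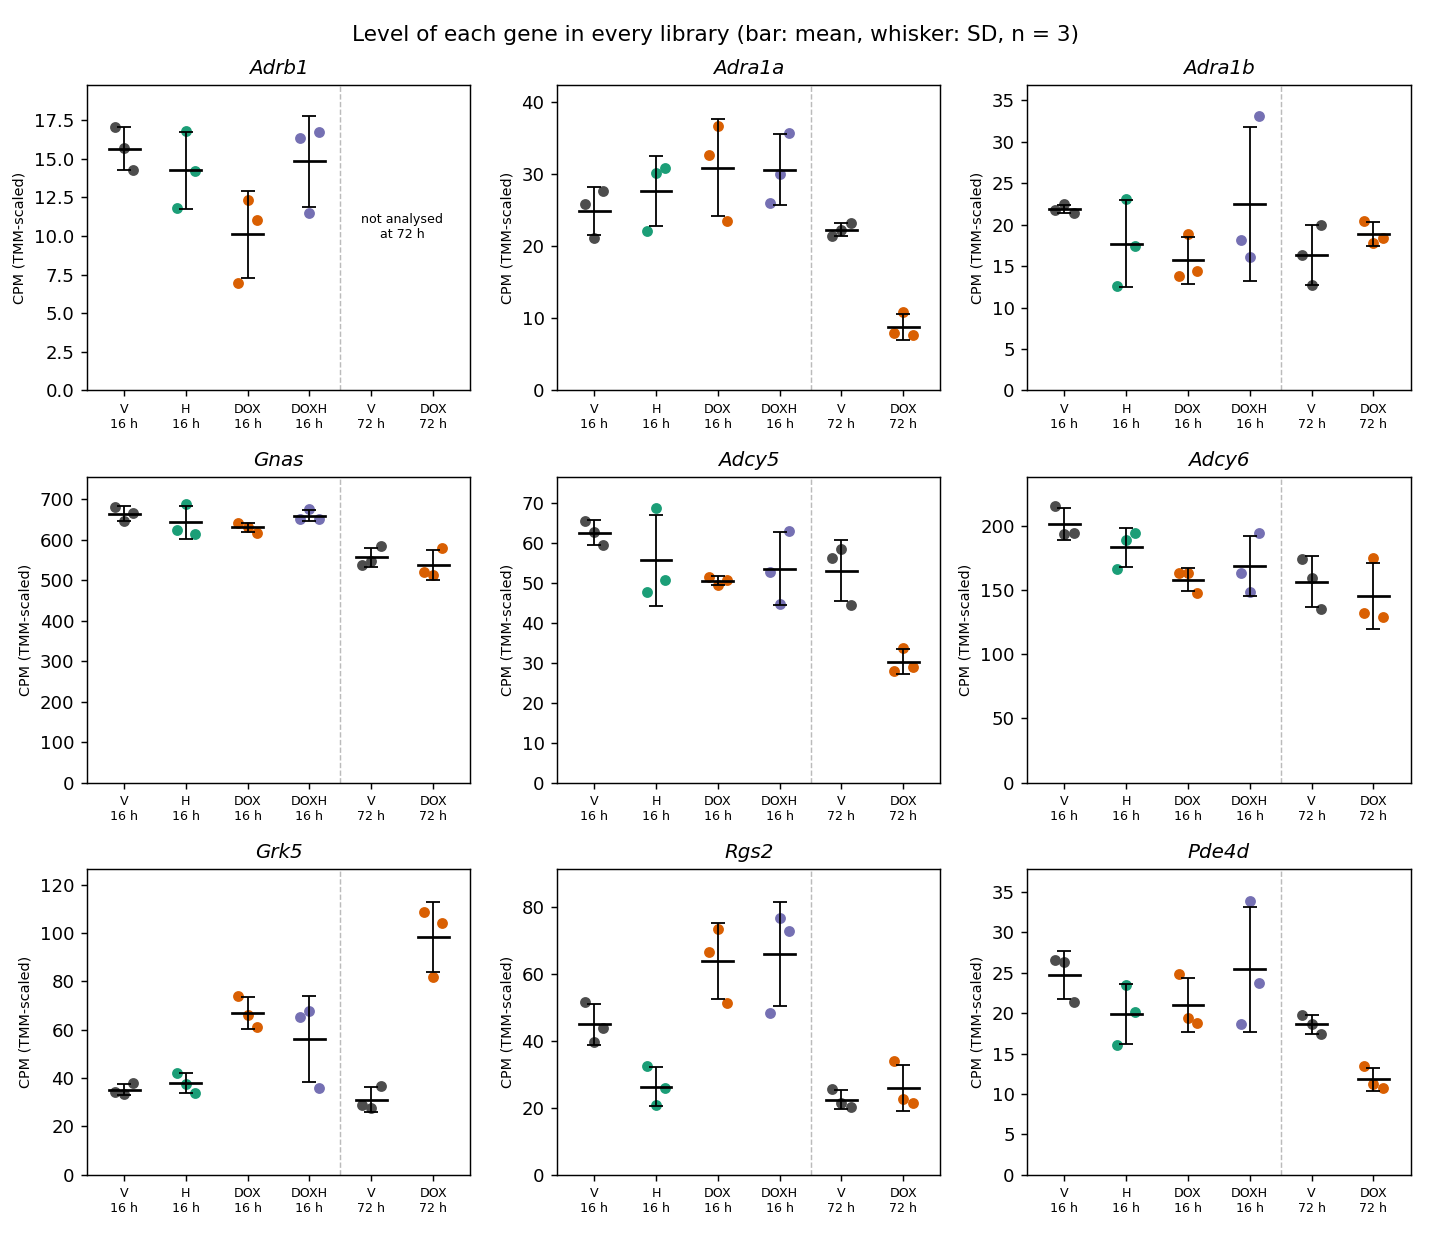
Level of each member in every library, in CPM scaled within the table of its time, with each panel 1 gene and groups along the horizontal axis. Points are libraries, horizontal bars group means and whiskers the SD (n = 3). Grk5 lies between 60.96 and 74.12 CPM in DOX against 33.45 to 37.79 CPM in V at 16 h, and Adra1a lies between 7.636 and 10.89 CPM in DOX against 21.41 to 23.17 CPM in V at 72 h.

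After doxorubicin, the transcript of the main cardiac beta receptor was lower at 16 h and that of the alpha-1A receptor at 72 h. Adrb1 (chr19:56722199-56733113, plus strand, GRCm38) encodes the beta-1 adrenergic receptor, the main receptor through which noradrenaline drives heart rate and force. It had 17.07, 15.68 and 14.24 CPM in V, and 6.929, 12.36 and 11.01 CPM in DOX at 16 h. Every DOX library was below every V library, and the lowest was the first DOX library. Mean levels were 15.7 ± 1.41 CPM in V and 10.1 ± 2.83 CPM in DOX (SD, n = 3). Adrb1 fell by 0.63 ± 0.22 (SE) on the log2 scale, with an adjusted p of 0.0419 in edgeR's quasi-likelihood test with Benjamini-Hochberg adjustment over all genes. This call is close to the threshold. It was lost without the first DOX library (-0.42, adjusted p = 0.132) and the third (-0.70, 0.0658), and without the first V library (-0.56, 0.124), the second (-0.63, 0.0906) or the third (-0.69, 0.0675), and it was also lost with a replicate block (-0.65, 0.0564).

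Adra1a (chr14:66635251-66771168, plus strand) encodes the alpha-1A receptor, which in mouse heart muscle cells couples to Gq and is known for protective signalling. At 16 h it had 25.84, 21.12 and 27.64 CPM in V and 32.55, 36.63 and 23.41 CPM in DOX. These groups overlapped, and the difference of 0.31 ± 0.19 on the log2 scale did not pass the test (adjusted p = 0.219). At 72 h it had 21.41, 22.15 and 23.17 CPM in V and 7.893, 10.89 and 7.636 CPM in DOX. All 3 DOX libraries were far below the lowest V library. Adra1a fell by 1.34 ± 0.14 on the log2 scale at 72 h (adjusted p = 8.79e-05 in edgeR). The call held with each library left out, at -1.52 to -1.25.

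Adra1b (chr11:43774606-43901210, minus strand) encodes the alpha-1B receptor, the other Gq-coupled alpha-1 receptor of heart muscle cells. At 16 h it had 21.79, 22.48 and 21.46 CPM in V and 13.77, 18.93 and 14.38 CPM in DOX. The groups did not overlap, yet the difference of -0.48 ± 0.28 did not pass (adjusted p = 0.192). At 72 h V had 16.34, 12.77 and 19.92 CPM and DOX 20.49, 17.80 and 18.37 CPM, and these groups overlapped (0.21 ± 0.15, adjusted p = 0.269 in edgeR). With a replicate block the difference was 0.40 and was called (adjusted p = 0.0171). Without the first DOX library at 72 h it was 0.14, without the second V library 0.055 and without the third V library 0.37, and it was called in none of these.

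The Gs subunit transcript stayed within a narrow range, and of the cyclases Adcy6 was lower at 16 h and Adcy5 at 72 h. Gnas (chr2:174284320-174346744, plus strand) had 681.1, 644.7 and 665.3 CPM in V and 640.0, 632.3 and 617.5 CPM in DOX at 16 h. Although no DOX library reached the lowest V library, the shift was small, -0.07 ± 0.07 on the log2 scale (adjusted p = 0.386 in edgeR). At 72 h the means were 556 ± 24.0 CPM in V and 536.9 ± 36.4 CPM in DOX, with overlapping libraries (-0.05 ± 0.09, adjusted p = 0.64). Exons of Nespas and Gm20721 lie antisense within Gnas, and without a stated strand setting their reads cannot be told apart from those of Gnas.

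Adcy5 (chr16:35154877-35305738, plus strand) and Adcy6 (chr15:98589973-98610076, minus strand) encode the main cyclases of the heart muscle cell, both inhibited by Gi and by calcium. Adcy6 had 215.5, 193.7 and 194.7 CPM in V and 163.0, 163.1 and 147.5 CPM in DOX at 16 h. The groups did not overlap, and Adcy6 fell by 0.35 ± 0.10 on the log2 scale (adjusted p = 0.025 in edgeR). That call was lost without the third DOX library (-0.30, 0.0821), the first V library (-0.30, 0.095) or the third V library (-0.37, 0.0525). At 72 h Adcy6 had 174.3, 159.6 and 135.1 CPM in V and 132.2, 174.7 and 128.9 CPM in DOX. These groups overlapped, with a difference of -0.11 ± 0.14 (adjusted p = 0.537). The antisense gene model Gm29331 overlaps Adcy6.

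Adcy5 had 65.66, 62.74 and 59.47 CPM in V and 51.51, 49.43 and 50.85 CPM in DOX at 16 h, without overlap. The difference of -0.31 ± 0.14 did not pass (adjusted p = 0.114 in edgeR). At 72 h Adcy5 had 56.19, 58.66 and 44.46 CPM in V and 28.06, 33.80 and 29.00 CPM in DOX. Every DOX library was below the lowest V library, and Adcy5 fell by 0.81 ± 0.12 on the log2 scale (adjusted p = 0.000554). The call held with each library left out, at -0.93 to -0.74.

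Of the genes that limit the signal, Grk5 rose at both times, Pde4d fell at 72 h, and Rgs2 was called at neither time against V. Grk5 (chr19:60889749-61095968, plus strand) encodes a receptor kinase that desensitises beta receptors and is known to enter the nucleus of stressed heart muscle cells. At 16 h it had 34.42, 33.45 and 37.79 CPM in V and 74.12, 66.08 and 60.96 CPM in DOX. At 72 h it had 28.88, 27.45 and 36.87 CPM in V and 108.8, 81.92 and 104.1 CPM in DOX. At both times the lowest DOX library was well above the highest V library. Grk5 rose by 0.93 ± 0.20 on the log2 scale at 16 h (adjusted p = 0.007 in edgeR) and by 1.66 ± 0.14 at 72 h (adjusted p = 5.75e-05). Both calls held with each library left out, at 0.85 to 0.99 and at 1.57 to 1.80.

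Pde4d (chr13:108449948-109953461, plus strand) encodes a phosphodiesterase with many isoforms, which gene-level counts do not separate. At 16 h V had 26.61, 26.29 and 21.36 CPM and DOX 24.80, 19.46 and 18.73 CPM. The groups overlapped, and the difference of -0.24 ± 0.21 did not pass (adjusted p = 0.398 in edgeR). At 72 h V had 19.78, 18.64 and 17.46 CPM and DOX 13.46, 11.30 and 10.73 CPM. The groups did not overlap, and Pde4d fell by 0.65 ± 0.11 on the log2 scale (adjusted p = 0.00124), a call that held with each library left out.

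Rgs2 (chr1:143999338-144004161, minus strand) encodes a regulator of G protein signalling whose transcript is known to respond quickly to cyclic AMP and to stress. At 16 h it had 51.39, 39.53 and 43.66 CPM in V and 66.37, 73.44 and 51.26 CPM in DOX. The groups overlapped by 1 library each, and the difference of 0.51 ± 0.21 did not pass (adjusted p = 0.0824 in edgeR). At 72 h V had 25.62, 21.45 and 20.26 CPM and DOX 33.90, 22.60 and 21.51 CPM. Here too the groups overlapped (0.21 ± 0.18, adjusted p = 0.35).

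**Figure D2:**
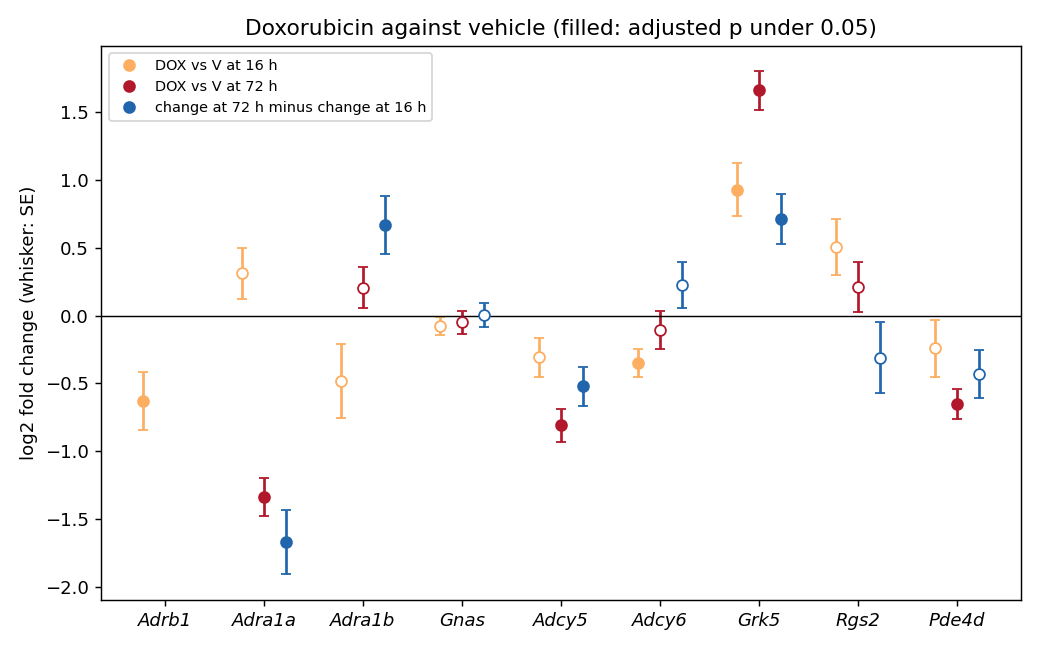
Log2 fold change of each member in DOX against V at 16 h and at 72 h, and the change at 72 h less that at 16 h, with whiskers of 1 SE from edgeR and filled points for an adjusted p under 0.05. Grk5 is at 0.93 and 1.66, while Adra1a is at 0.31 and -1.34.

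Counted together, 1 of the 9 members rose at 16 h and 2 fell, so 3 were called where 32.3% of all 10393 genes were called, 15.6% higher and 16.6% lower. The members' median log2 fold change was -0.24 and that of all genes 0.02. At 72 h, 1 of 8 members rose and 3 fell, beside 53.7% of 7703 genes called, 26.5% higher and 27.2% lower. The median was -0.08 for the members and 0.01 for all genes. The share of members called was thus near that of all genes at both times. With only the compared groups in the fit, 6 members were called at 16 h, the added ones being Adcy5, Adra1b and Rgs2. Calls over all genes also rose with that setting, from 3352 to 4571.

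The response to doxorubicin differed between the times for 4 of the 8 members, 2 in each direction, where 35.6% of 7407 genes were called, 16.8% higher and 18.8% lower. The difference, DOX against V at 72 h less the same at 16 h, was -1.67 ± 0.24 for Adra1a (adjusted p = 0.000364 in edgeR) and -0.52 ± 0.14 for Adcy5 (0.0133). It was 0.71 ± 0.18 for Grk5 (0.00927) and 0.67 ± 0.21 for Adra1b (0.0289). Adra1a thus went from slightly above V to far below it, and Adra1b from below V to slightly above. In the edgeR fit on all libraries without a replicate block, Adra1a at 16 h and Adra1b at both times were not called. Adra1b was called at 16 h with only the compared groups in the fit, and at 72 h with a replicate block. The Adra1b difference was lost without the first V library at 16 h (0.68, 0.053) or the second (0.66, 0.0562), without the first DOX library at 16 h (0.58, 0.0565) or the third (0.61, 0.0659), and without the first DOX (0.61, 0.0646) or V (0.68, 0.051) library at 72 h. Pde4d missed the threshold at -0.43 ± 0.18 (0.0796) and passed it without the first DOX library at 72 h (-0.53, 0.042). Gnas, Adcy6 and Rgs2 did not pass.

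Hesperitin alone moved no member past the threshold at 16 h, and neither did its addition to doxorubicin. In H against V, 0 of 9 members and 0% of all genes were called in edgeR. DESeq2, limma voom and voom with quality weights also called 0 members. In edgeR 664 of all 10393 genes and 1 member had an unadjusted p under 0.05. That member was Rgs2, with 32.40, 20.70 and 25.75 CPM in H. All 3 H libraries were below the lowest V library, by -0.77 ± 0.21 on the log2 scale (unadjusted p = 0.00363, adjusted p = 0.556). Of all neighbouring groups in the order of levels at 16 h, H and V for Rgs2 were the only pair without overlap among the 9 members. How often such a gap occurs over all genes was not counted, so nothing particular to Rgs2 follows from it. The order for Rgs2 from low to high was H, V, DOX and DOXH.

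DOXH against DOX also gave 0 of 9 members and 0% of all genes in edgeR. An unadjusted p under 0.05 was found for 1958 of all 10393 genes and for 1 member. DESeq2 and limma voom called 0 members and voom with quality weights 1. The member was Adrb1, with 16.36, 11.46 and 16.70 CPM in DOXH, where the first library and the third were above all DOX libraries and the second was within their range. Its difference was 0.55 ± 0.22 (unadjusted p = 0.0248, adjusted p = 0.207). Without the second DOXH library it was 0.71 with an adjusted p of 0.0447. With quality weights it was 0.58 with an adjusted p of 0.0467.

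Grk5 had 65.14, 67.91 and 35.69 CPM in DOXH, so that 2 libraries were within the range of DOX and the remaining one was within that of V. The third DOXH library also had the highest first component score of the group. The difference of Grk5 was -0.25 ± 0.20 against DOX (adjusted p = 0.498) and 0.68 ± 0.20 against V (adjusted p = 0.201). Without the third DOXH library the latter became 0.92 (adjusted p = 0.000639), and Adcy6 was then called too at -0.37 (0.024). In DOXH against V edgeR called 0 of 9 members and 0% of all genes. There 3 members and 1749 of all 10393 genes had an unadjusted p under 0.05. DESeq2 and limma voom called 0 members and voom with quality weights 2, Grk5 and Adcy6.

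Rgs2 rose in DOXH against H, the only member called there, beside 0.154% of all genes, 0.115% higher and 0.0385% lower. It had 48.11, 76.69 and 72.62 CPM in DOXH, each above the highest H library, and the change was 1.32 ± 0.21 on the log2 scale (adjusted p = 0.0442 in edgeR). This call was lost without the second DOXH library (1.20, 0.152), the second H library (1.18, 0.0782) or the third H library (1.31, 0.156), with only the compared groups in the fit (1.32, 0.33) and with a replicate block (1.33, 0.0667). Without the third DOXH library Grk5 was called as well (0.82, 0.0009).

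The interaction, the effect of doxorubicin with hesperitin less its effect without, was called for 0 of 9 members and 0% of all genes in edgeR. Here 1228 of all 10393 genes and 2 members had an unadjusted p under 0.05. DESeq2, limma voom and voom with quality weights also called 0 members. The members were Rgs2 at 0.82 ± 0.29 (adjusted p = 0.372) and Adrb1 at 0.69 ± 0.30 (adjusted p = 0.411). These comparisons share libraries, so their values are not independent of each other.

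In edgeR the members other than Rgs2 passed in none of the comparisons that involve a hesperitin group. Adra1a had 27.7 ± 4.85 CPM in H and 30.5 ± 4.91 CPM in DOXH (SD, n = 3), with the order V, H, DOXH and DOX from low to high. Adra1b had 17.7 ± 5.22 CPM in H, and in DOXH 18.17, 16.07 and 33.10 CPM, where the third library was the highest of all 12. Pde4d showed a wide DOXH group too, with 18.65, 33.85 and 23.76 CPM, but here the second library was the highest. Both genes are examples of the spread within DOXH, which was wider than that in V for all 9 members except Gnas. A spread wider than in V was not particular to DOXH. In H the SD was also above that in V for all 9 members except Rgs2. For Adra1b it was 5.22 CPM in H and 0.522 CPM in V.

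Adcy5 and Adcy6 had the same order of group means at 16 h, DOX lowest, then DOXH, H and V. In H they had 55.8 ± 11.4 and 183.2 ± 15.1 CPM, and in DOXH 53.6 ± 9.12 and 168.7 ± 23.2 CPM. Gnas had 642.4 ± 40.6 CPM in H and 659.2 ± 13.5 CPM in DOXH, and Grk5 had 37.8 ± 4.09 CPM in H, overlapping V. Apart from the step from H to V for Rgs2, neighbouring groups overlapped at each step of the order for each member. Such steps were not counted over all genes.

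**Figure D3:**
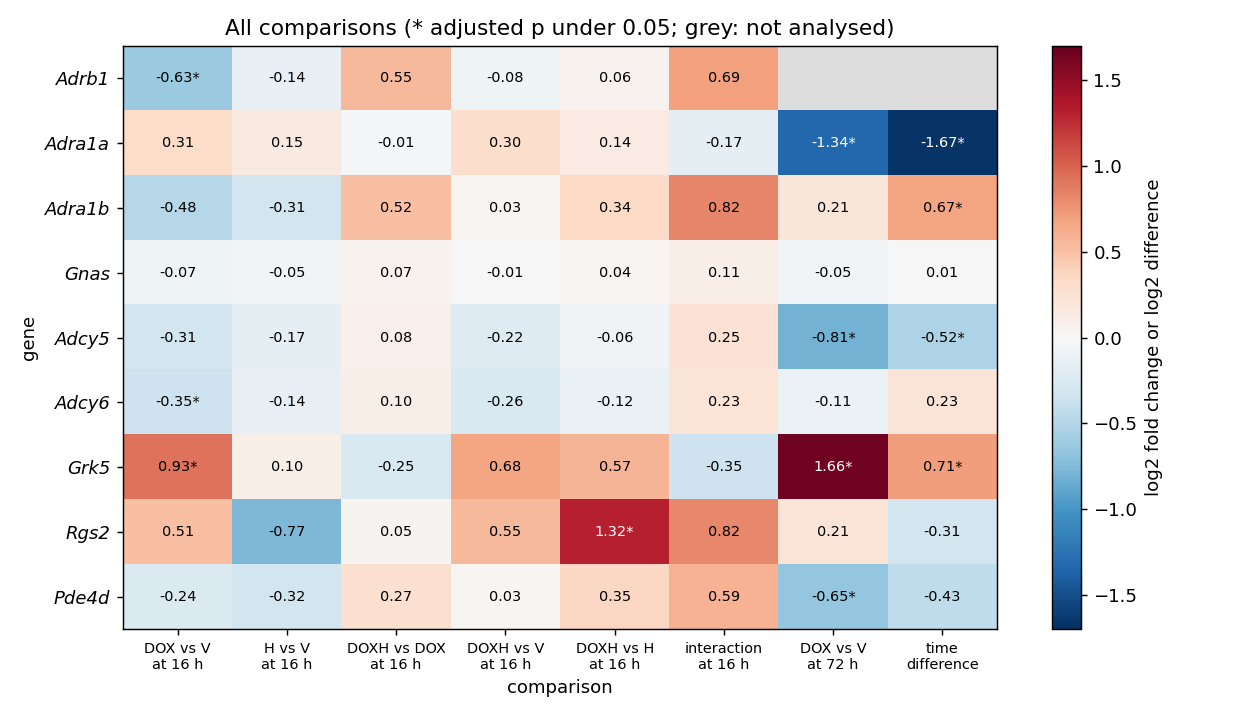
Log2 fold change of each member in all 8 comparisons, coloured from lower to higher, with the calls at an adjusted p under 0.05 marked. Calls lie in DOX against V at both times, in the difference between times and, for Rgs2 alone at 1.32, in DOXH against H.

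The other genes of the pathway were read from 12 lists with 177 listed genes besides the members, chosen with earlier results of these data known. In DOX against V at 16 h, 19 of the 122 genes tested rose and 35 fell, with a median of -0.12 beside 0.02 for all genes. Over all genes 15.6% rose and 16.6% fell, against 15.6% and 28.7% of these. At 72 h, 22 of 102 rose and 35 fell, with a median of 0.002 beside 0.008 for all genes, which is 21.6% higher and 34.3% lower beside 26.5% and 27.2% of all genes. Each list below is small, its counts are to be read against these shares, and nothing particular to a list follows from them. Leaving out 1 library gave 10 to 14 higher and 29 to 34 lower at 16 h, with the 10 coming from the fit without the first V library, and 16 to 20 higher and 31 to 34 lower at 72 h. Genes said below to rise or fall passed the adjusted threshold of 0.05 in edgeR, and the medians are log2 fold changes of a list's tested genes. Further adrenergic receptor genes were not analysed here.

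Among other receptors coupled to Gs or Gi, 1 of 8 rose and 1 fell at 16 h (median -0.14). Ptger4, a Gs-coupled prostaglandin receptor, rose by 2.26 ± 0.33, and the orphan receptor gene Gpr22 fell by 1.78 ± 0.29 on the log2 scale. At 72 h 2 of 6 rose and 2 fell (median -0.16), with Pth1r, the parathyroid hormone receptor, at 1.91 ± 0.19. The list of G protein subunits also held Ric8a and Ric8b, which do not encode subunits. Of its genes 5 of 20 rose, Ric8a among them, and 3 fell at 16 h (median -0.07). Gnai1, an inhibitory alpha subunit, rose by 1.59 ± 0.26. That count of 5 was 2 without the first V library and 3 without the third DOX library. At 72 h 2 of 16 rose, Ric8a among them, and 3 fell, Ric8b among them (median 0.06). Gnb5, a beta subunit that pairs with RGS proteins, fell by 0.80 ± 0.12.

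Other cyclases and receptor kinases did not move as one. Adcy9, a cyclase little affected by forskolin, rose by 1.02 ± 0.27 at 16 h (adjusted p = 0.0157 in edgeR) and fell by 0.65 ± 0.12 at 72 h (0.00155). The difference between these was -1.68 ± 0.20 (0.000119). Its call at 16 h was lost without the first DOX library (0.86, 0.0563) or the first V library (0.99, 0.0523). Adcy4 rose by 0.80 ± 0.09 at 72 h. Counts were 1 of 4 other cyclases higher and 0 lower at 16 h (median -0.26), and 1 of 3 higher and 1 lower at 72 h (median 0.17). Of the other receptor kinases and arrestins, 1 of 5 rose at 16 h, Grk3 at 0.50 ± 0.12, and 2 of 4 rose at 72 h, with Grk6 at 0.36 ± 0.09. None of these fell, and the medians were 0.004 and 0.15. The 2 at 72 h became 1 without the first DOX library, the second DOX library or the first V library.

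Of the other RGS genes, 1 of 6 rose and 3 fell at 16 h, and 0 of 5 rose and 1 fell at 72 h, where Rgs6, which limits Gi signalling in the heart, fell by 1.71 ± 0.21. The RGS medians were -0.33 and 0.10, and the 1 that rose at 16 h was lost without the third DOX library, the first V library or the third V library. Of the phosphodiesterases that cut cyclic AMP, 0 of 11 rose and 3 fell at 16 h, with Pde7b falling by 1.57 ± 0.32, and 1 of 8 rose and 3 fell at 72 h, with Pde4a falling by 1.00 ± 0.10, and the medians were -0.23 and -0.01. PKA and EPAC genes counted 0 of 8 higher and 5 lower at 16 h, and 3 of 9 higher and 5 lower at 72 h, with medians of -0.38 and -0.46. Rapgef4, the gene of the cyclic AMP sensor EPAC2, fell by 0.78 ± 0.15 at 16 h. The PKA subunit gene Prkar2a fell by 0.38 ± 0.09 at 16 h and by 0.87 ± 0.09 at 72 h. At 72 h the PKA inhibitor gene Pkia fell by 1.02 ± 0.09 and Rapgef3, the gene of EPAC1, rose by 1.15 ± 0.13. The list of A-kinase anchoring proteins also held Bves, Popdc2 and Popdc3, which do not encode such proteins. Its genes split into 3 higher and 5 lower of 14 at 16 h, and 3 higher and 6 lower at 72 h. Their medians were -0.01 and -0.20. Bves and Popdc2 were among the lower genes at both times, and Akap6 fell by 0.98 ± 0.11 at 72 h. The 5 lower at 16 h became 2 without the first or the second DOX library and without the first or the third V library.

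PKA substrates of the muscle cell had the lowest median of the 11 lists with tested genes at both times. At 16 h 0 of 14 rose and 12 fell with a median of -0.98, and at 72 h 0 of 14 rose and 11 fell with a median of -0.57. Ldb3, a protein of the Z disc, fell by 1.12 ± 0.18 at 16 h. Of these genes Ryr2, Pln and Tnni3 are also in the list of cardiac muscle markers, of which 12 of 12 fell at 16 h and 11 of 12 at 72 h. The other genes of the list were likewise chosen for the cardiac muscle cell. The part of lower muscle RNA in the fall of this list was not tested. Of the Gq effectors, 0 of 16 rose and 3 fell at 16 h, and 4 of 11 rose and 2 fell at 72 h, with medians of -0.12 and 0.22. Prkce, a calcium-independent protein kinase C, fell by 0.79 ± 0.14 at 16 h and by 0.66 ± 0.11 at 72 h. Of CREB family genes and CREB targets, 7 of 16 rose and 0 fell at 16 h, and 4 of 12 rose and 1 fell at 72 h, with medians of 0.29 and 0.23. Fewer of these genes were called higher whichever library was left out. Calls over all genes were fewer then too, 1928 to 2409 beside 3352 at 16 h and 3397 to 4022 beside 4133 at 72 h. At 16 h the count higher was 4 without the first DOX library, the first V library or the third V library, 3 without the second DOX or second V library, and 5 without the third DOX library. At 72 h it was 1 without the first DOX library, the second V library or the third V library, 2 without the second DOX library and 3 without either of the others. Nr4a1, an early target gene of CREB, rose by 1.82 ± 0.34 at 16 h, and Crtc2, a CREB coactivator, rose by 0.83 ± 0.11 at 72 h. Nr4a1 was not called at 72 h (0.19 ± 0.28, adjusted p = 0.602 in edgeR). Its difference between the times was -1.65 ± 0.44 (0.0157). Fos, Dusp1 and Sik1, which also rose at 16 h, were not called at 72 h either. The gene that fell at 72 h was Ppargc1a (-0.53 ± 0.11).

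**Figure D4:**
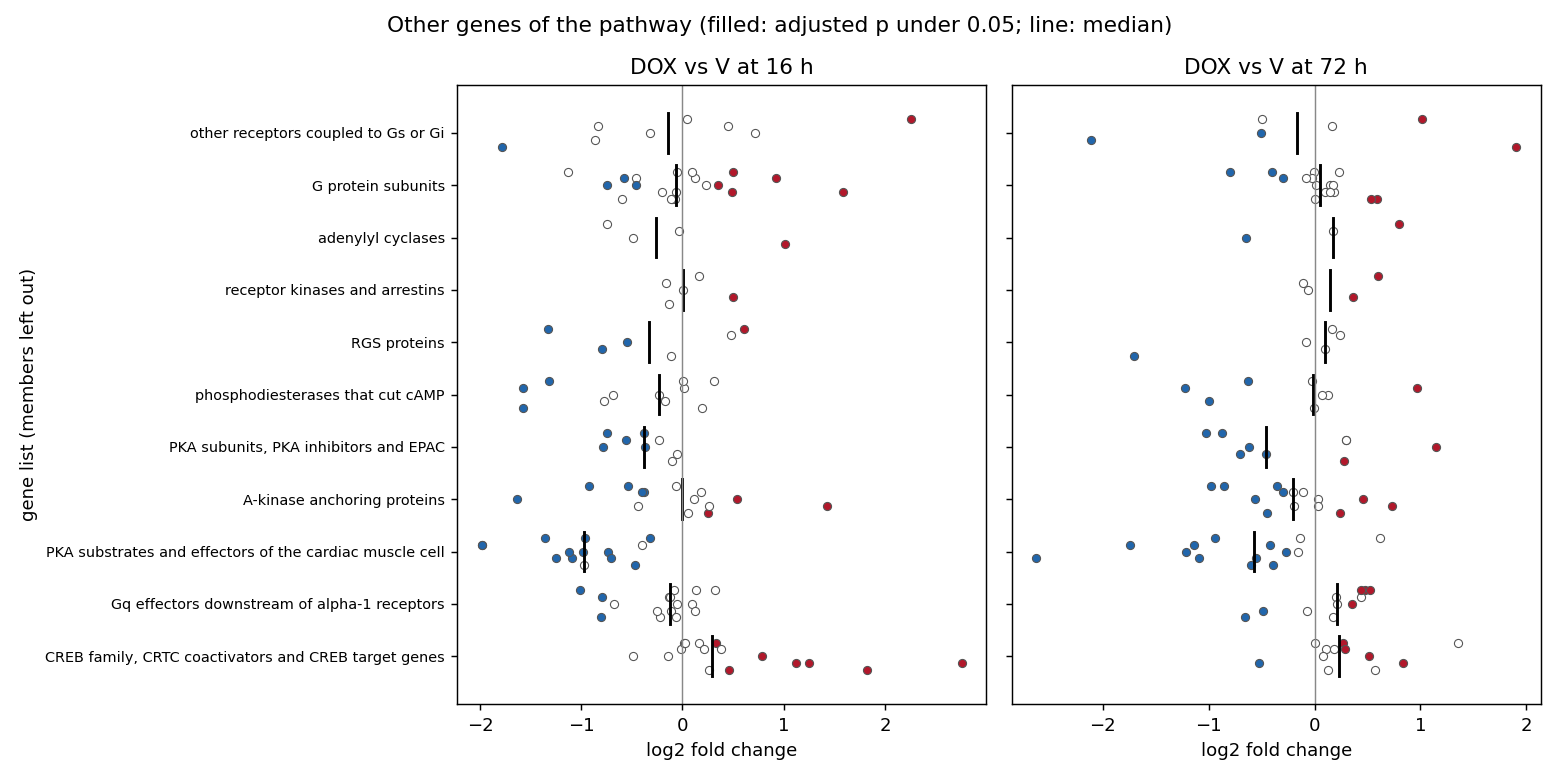
Log2 fold change of each tested gene of the pathway lists, members left out, in DOX against V at 16 h and 72 h, where points are genes, filled for an adjusted p under 0.05, and vertical lines are list medians. Of the PKA substrates 12 of 14 fell at 16 h and 11 of 14 at 72 h, and of the CREB list 7 of 16 and 4 of 12 rose, which became 3 to 5 and 1 to 3 with 1 library left out.

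Among 10372 genes, those with the pattern most like a member over the 12 libraries at 16 h, by Pearson's r of log2 CPM, were as follows. For Grk5 they were Rrm2b (r = 0.977) and Pak6 (0.976), which over the 6 libraries at 72 h had r = -0.51 and 0.49. For Rgs2 they were Rasgef1b (0.942) and Per1 (0.927), with 0.31 and 0.56 at 72 h. For Adcy5 they were Rptor (0.928) and Lamb1 (0.914), with 0.92 and 0.40 at 72 h. Among the members themselves, Adcy5 and Adcy6 had r = 0.80, and Adcy6 and Grk5 had r = -0.88. All of these points share the same libraries and the separation of DOX from V, and they describe these libraries only.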

How the data were processed

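Heart poly(A) RNA was sequenced as single-end reads. The authors deposited expected counts per gene, estimates that need not be whole, 1 table per time. RSEM, DESeq2 and GRCm38 (mm10) are named per the submitters' processing notes. The sources used here state no version, annotation, strand setting or filter before deposit.

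Expected counts were rounded, scaled by TMM and filtered with filterByExpr, which left 10393 genes at 16 h and 7703 at 72 h. edgeR 4.0.16 (R 4.3.3) fitted group means with a robust quasi-likelihood test on all genes, on 12 libraries at 16 h, 6 at 72 h and 12 for the time difference, leaving 8, 4 and 8 residual degrees of freedom. Benjamini-Hochberg adjustment ran over all genes, with a threshold of 0.05. SE is the log2 change over the root of F, and log2 CPM used a prior count of 2. Fits were tested on simulated data. At 72 h, 6 columns with a code in no label were not used, and 1 DOX column carries a number in no label.

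Members and lists were chosen with earlier results of these data known. List genes named are up to 3 per list with the smallest p past the threshold, and the text names fewer. Alternatives were RLE and upper quartile factors, other filters, DESeq2 1.42.0, limma 3.58.1 voom, a replicate block, only the groups compared, and each library left out. Counts of the pathway lists under these settings were added after seeing the data. Depth of 9255708 to 20587603 counts and 3 libraries per group limit small changes. Gene positions are from GENCODE for GRCm38.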

Additional observations from a re-analysis of the deposited data

Results flagged for a closer look

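The response of 4 members to doxorubicin differed between 16 h and 72 h by the test of the difference itself. On the log2 scale the change at 72 h less that at 16 h was -1.67 for Adra1a and -0.52 for Adcy5, and 0.71 for Grk5 and 0.67 for Adra1b. For Adra1a, the libraries overlapped at 16 h and were apart at 72 h, and for Adra1b they were apart at 16 h and overlapped at 72 h. The 2 times were separate tables, and whether separate processing has a part in these differences was not tested.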

How the results depend on the processing

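All 4 calls of members in DOX against V at 72 h, and that of Grk5 at 16 h, held under every alternative and every library left out. Leaving out 1 library gave 1 to 3 called members in DOX against V at 16 h, 0 to 1 in DOXH against DOX, 0 to 2 in DOXH against V, 0 to 2 in DOXH against H and 3 to 4 in the time difference, and 0 in H against V and in the interaction. With only the groups compared, 6 members were called in DOX against V at 16 h and 0 in DOXH against H. Voom with quality weights called 6, 1, 2 and 2 members in DOX against V, DOXH against DOX, DOXH against V and DOXH against H. The cause was not tested.

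The replicate block called 2 members in DOX against V at 16 h, 0 in DOXH against H, 5 at 72 h and 4 in the time difference. At 72 h it added Adra1b (0.40, adjusted p = 0.0171). Same-numbered libraries had deviations correlated at -0.42 to 0.25 at 16 h. Libraries with different numbers were not set beside them, so this range does not settle a pairing either way. At 72 h the 2 pairs with a number had 0.20 and 0.24, and with fewer than 3 pairs this does not settle a pairing.

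Reversed directions were all of uncalled values. In DOXH against V, voom gave -0.042 for Adra1b and -0.012 for Pde4d, and quality weights gave -0.20 for Adra1b, -0.30 for Pde4d and 0.017 for Adrb1. Quality weights also gave -0.26 for Rgs2 in DOXH against DOX, -0.086 for Adra1a and -0.010 for Pde4d in DOXH against H, and -0.004 for Gnas in the time difference, where the block gave -0.016. With 1 library left out, DOXH against DOX ranged from -0.049 to 0.20 for Adcy5, -0.017 to 0.18 for Adcy6, -0.18 to 0.13 for Adra1a and -0.087 to 0.23 for Rgs2. DOXH against H ranged from -0.19 to 0.12 for Adcy5, -0.046 to 0.58 for Adra1b and -0.054 to 0.22 for Adrb1. DOXH against V ranged from -0.36 to 0.22 for Adra1b, -0.17 to 0.079 for Adrb1, -0.030 to 0.009 for Gnas and -0.22 to 0.22 for Pde4d. The time difference of Gnas ranged from -0.053 to 0.042, and Rgs2 at 72 h from -0.025 to 0.33.

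Over all genes, DOX against V at 16 h gave 3352 calls, and 1928, 2021 and 2230 without the first V library, the third V library or the first DOX library. With quality weights it gave 5161, and with only the groups compared 4571. In H against V, DOXH against DOX, DOXH against V, DOXH against H and the interaction edgeR called 0, 0, 0, 16 and 0 genes, DESeq2 13, 390, 131, 718 and 53, and quality weights 16, 1329, 2118, 2157 and 236. Leaving out the second DOXH library gave 1554 in DOXH against DOX, and leaving out the third gave 1674 against V and 2298 against H.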

Other observations

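Sik1, a kinase gene induced through CREB that restrains CREB coactivators, was the only other pathway gene past the threshold in DOXH against H, at 1.92 ± 0.31 on the log2 scale (adjusted p = 0.0442 in edgeR). That call was lost without the first DOXH library (1.89, 0.119) or the second (1.84, 0.172), without the second H library (1.74, 0.0788) or the third (1.68, 0.155), and with only the groups compared (1.92, 0.33). It had 32.6 CPM (SD 18.0, n = 3) in H, 58.0 CPM (SD 11.1) in V, 126.3 CPM (SD 22.7) in DOX and 123.8 CPM (SD 18.2) in DOXH. The order of its group means, H below V below DOXH and DOX, was near that of Rgs2, and Per1 had 43.0 CPM in H and 70.7 CPM in V. In H against V, Sik1 differed by -0.83 ± 0.31 (adjusted p = 0.735) and Per1 by -0.71 ± 0.20 (0.556), so neither passed. Both were picked after their values were seen, since Per1 entered as a gene alike Rgs2, and no test of the pattern was made.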
